A study of Mus musculus with 6 samples.

Results

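A set of 10 genes that carry amino acids across the membranes of T cells was followed in effector memory CD4+ T cells, helper cells that have met their antigen before, sorted alive from mouse spleens. They were Slc3a2, Slc7a5, Slc7a1, Slc7a6, Slc1a5, Slc1a4, Slc38a1, Slc38a2, Slc38a9 and Slc43a1, taken by name. All 10 had a row among the 34866 genes of the deposited count table, each with the identifier and version of the GENCODE annotation of the GRCm38 build, and 9 of them had enough counts to be tested. The 2 groups were Il1rn knockout mice (libraries Il1rnKO 1, 2 and 3), which lack the secreted antagonist of the interleukin-1 receptor, and wild-type mice (WT 1, 2 and 3). No treatment, age, sex, strain background or breeding is given in the labels, nor is the knockout allele, nor whether a library is 1 animal or a pool, and the p-values therefore reflect the spread among the libraries as deposited, part of which may be technical.

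Amino acid uptake is a checkpoint of T cell activation: naive cells carry few transporters, antigen receptor signalling brings more of them to the surface, and leucine, arginine and glutamine that enter the cell sustain the growth kinase complex mTORC1 and protein synthesis. SLC3A2, the CD98 heavy chain, moves no amino acid itself; it binds light chains such as SLC7A5 and SLC7A6 and takes them to the plasma membrane. The exchanger SLC1A5 and the sodium-coupled SLC38 carriers bring in glutamine and other small neutral amino acids, and SLC38A9 sits on the lysosome, where it reports arginine to mTORC1.

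None of the 9 tested transporter genes passed the test between knockout and wild type. By edgeR's quasi-likelihood test, adjusted over all 13374 genes tested, 0 of the 9 passed the threshold of 0.05 against 7 of all genes (0.0523%), and the adjusted p of the 9 lay between 0.988 and 0.998. At an unadjusted p under 0.05 there were again 0 of the 9, against 545 of all genes (4.08%). In 0 of the 9 did the values of the groups not overlap, which happened in 1259 of all tested genes (9.41%). DESeq2 and limma voom with quality weights passed 0 of them as well. The log2 fold changes (knockout over wild type) were positive for 6 and negative for 3, and their median of 0.02 equalled that of all tested genes, 0.02. A missed threshold does not show that the groups are alike, so an interval is given with each gene. For 8 of the 9 the 95% interval of the fold change lay inside a 2-fold change in either direction, and Slc1a4, with 5 to 34 counts in a library, was the exception. Levels below are in CPM, a gene's count relative to the library total with TMM scaling, unless a length or another scale is named.

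**Figure D1:**
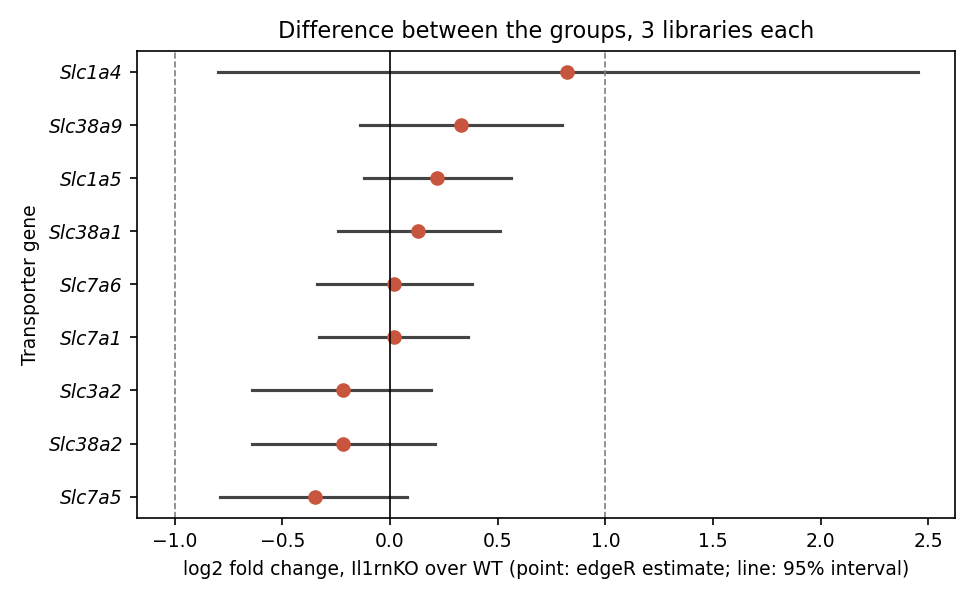
Log2 fold change (x axis) of the 9 tested transporter genes (y axis) between Il1rnKO and WT, with points for the edgeR estimate and lines for its 95% interval; dashed lines mark a 2-fold change. Every line crosses 0, from -0.35 for Slc7a5 to 0.82 for Slc1a4, and the line of Slc1a4 alone crosses a dashed one.

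Libraries held 14102183 to 17677217 counts, and 1 CPM before TMM scaling thus stood for 14.1 to 17.7 counts. Il1rn, the targeted gene, had 6, 10 and 0 counts in the wild-type libraries 1 to 3 against 1, 3 and 1 in the knockout libraries, too few to check the labels. Helper T cell markers were high in every library: Cd4 at 975 to 1214 CPM and Cd3e, a subunit of the T cell receptor complex, at 302 to 459 CPM. Cd8a of cytotoxic T cells was at most 2.88 CPM, and Cd8b1 at most 6.26 CPM. Ccr7, which is low on effector memory cells, was still detected, at 113 to 281 CPM. Transcripts of the 8 neutrophil markers, without TMM scaling, summed to 3.9 to 7.35 CPM in wild type and 39.8 to 108 CPM in knockout. Ngp was at 0 in all 3 wild-type libraries. Fold changes were positive for 8 of 8, and 1, Ngp, passed by edgeR. Sums over the other marker lists, also without TMM scaling, overlapped between the groups, with some exceptions. These were the 5 monocyte and macrophage markers (5.03 to 13 and 16.3 to 22.7 CPM), the 6 erythroid markers (3.12 to 5.09 and 5.65 to 9.24 CPM) and the 2 CD8 markers (3.62 to 5.03 and 5.23 to 7.15 CPM). The CD8 gap rests on the scale. With TMM scaling, Cd8a and Cd8b1 were both lower in Il1rnKO 1 (1.11 and 3.81 CPM) than in WT 3 (1.16 and 4.33 CPM). The share of mitochondrially encoded counts was 5.68, 7.32 and 8.92% in wild type (libraries 1 to 3) against 3.69, 3.44 and 8.34% in knockout. In bulk RNA, fewer cells of a type and less RNA per cell cannot be told apart.

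The heavy chain Slc3a2 lay above 93.4% of the 13326 tested genes in CPM per kilobase of annotated exon. The gene (ENSMUSG00000010095.13) lies on the minus strand of chromosome 19 from 8706882 to 8723369. Its levels were 163, 234 and 142 CPM in WT 1, 2 and 3 and 159, 158 and 145 CPM in Il1rnKO 1, 2 and 3, from 1839 to 3780 counts. WT 2 stood above the other 5 libraries, which lay close together, and the groups overlapped. Wild type averaged 180 ± 48.1 CPM against 154 ± 7.94 CPM for the knockout (SD, n = 3), so wild type varied by 26.8% of its mean and knockout by 5.15%. Among the 7086 tested genes with a mean of 20 CPM or more, the median of this coefficient of variation was 12.7% in wild type and 14.6% in knockout. On the log2 scale the fold change was -0.22 (SE 0.19, 95% interval -0.64 to 0.19), and without WT 2 it was 0.011, on the other side of 0.

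Slc38a2 (SNAT2), a sodium-coupled carrier of small neutral amino acids that cells induce when amino acids run short, had the highest CPM of the 10 genes and shared the high value in WT 2. Its gene is on the minus strand of chromosome 15 from 96687392 to 96699730 (ENSMUSG00000022462.7). Its levels were 330, 482 and 333 CPM in WT 1, 2 and 3 and 377, 291 and 316 CPM in Il1rnKO 1, 2 and 3. Knockout libraries 1 to 3 all lay below WT 2, while Il1rnKO 1 lay above the other two wild-type libraries. The means were 381 ± 86.8 and 328 ± 44.0 CPM in wild type and knockout (SD, n = 3), with a log2 fold change of -0.22 (SE 0.19, 95% interval -0.64 to 0.21) that came to -0.02 without WT 2.

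The promoters of these 2 genes and of Slc1a4 are shown because Slc3a2 and Slc38a2 shared their high library and all 3 genes are known targets of ATF4, the transcription factor of the amino acid response. ATF4 binds composite elements whose core was searched here as TGATGNAA. RefSeq promoters (GRCm38.p6) were at hand for 7 of the 10 genes, each window running from 250 bases before to 50 bases after the annotated start; Slc7a5, Slc1a5 and Slc38a1 had none in the table. The 7 genes had 9 windows in all. On both strands the core was found in 1 of the 9 windows, that of Slc1a4, against 3.97% of all 32851 promoter windows. The E-box CACGTG, a site for MYC family proteins, was found in 1 of the 9, that of Slc43a1, against 7.15% of all windows. The GC box GGGCGG was found in 8 of the 9, against 35.7%. The 2 windows of Slc7a6 overlap and hold the same GC box, so that box is counted in both. A match is a description of the letters, and the lack of one says only that these letters are not in this window. The lines give 120 bases before and 20 bases after the start, 5′ to 3′ on the minus strand, on which all 3 genes lie. Capitals mark GC boxes on either strand and, in Slc1a4, the core on the opposite strand (TTGCATCA), which begins 4 bases before the start. The regions are chr19:8713878-8714017 for Slc3a2, chr15:96699709-96699848 for Slc38a2 and chr11:20332694-20332833 for Slc1a4, and the RefSeq start of Slc3a2, at 8713897, lies inside the gene as GENCODE draws it.
Slc3a2: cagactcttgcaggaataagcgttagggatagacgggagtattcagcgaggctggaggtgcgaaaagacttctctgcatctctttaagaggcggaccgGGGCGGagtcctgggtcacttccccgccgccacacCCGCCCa
Slc38a2: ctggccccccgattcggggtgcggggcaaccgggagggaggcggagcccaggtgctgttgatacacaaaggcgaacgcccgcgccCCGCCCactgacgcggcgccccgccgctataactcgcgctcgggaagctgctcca
Slc1a4: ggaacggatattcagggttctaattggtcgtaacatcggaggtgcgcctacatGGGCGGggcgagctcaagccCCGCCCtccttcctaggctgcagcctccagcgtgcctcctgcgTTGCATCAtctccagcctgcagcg

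**Figure D2:**
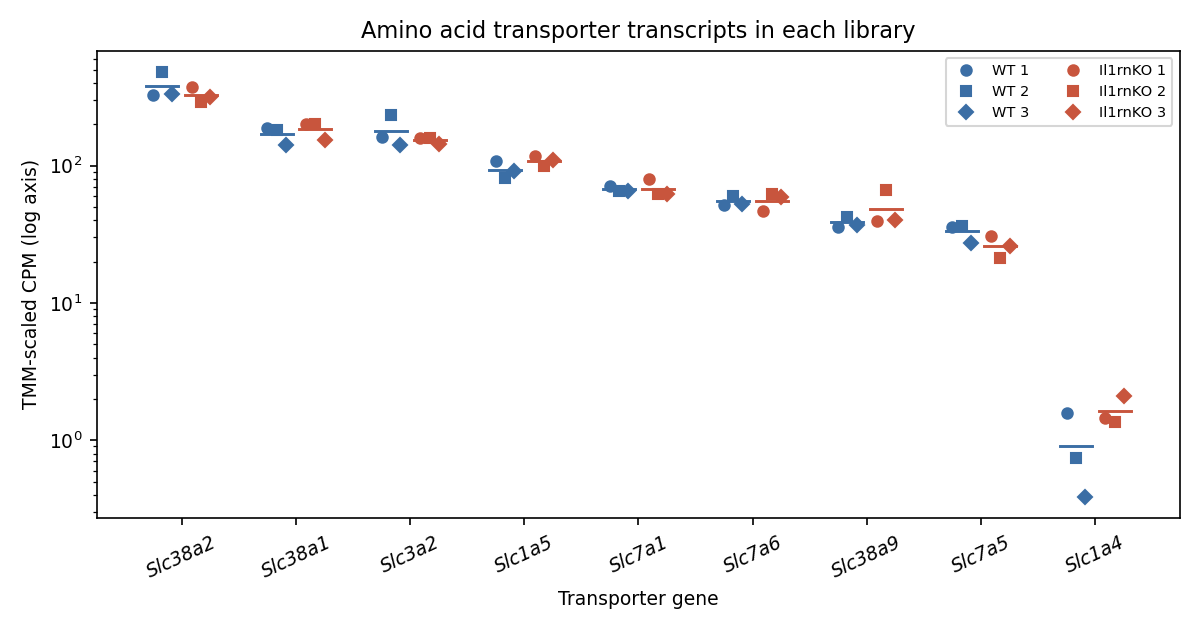
TMM-scaled CPM (y axis, log scale) of the 9 tested transporter genes (x axis) in each library, with blue for WT, red for Il1rnKO, a marker shape for each replicate number and a line at each group mean. The blue square of WT 2 stands highest for Slc38a2 (482 CPM) and Slc3a2 (234 CPM), and the red square of Il1rnKO 2 highest for Slc38a9 (66.1 CPM).

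Slc7a5 (LAT1), the light chain that exchanges glutamine for leucine and other large neutral amino acids, had the lowest fold change of the 9 genes without passing the test. The annotation puts it on the minus strand of chromosome 8 from 121881150 to 121907694 (ENSMUSG00000040010.10). It was at 36.0, 36.5 and 27.3 CPM in WT 1, 2 and 3 and at 31.0, 21.1 and 26.2 CPM in Il1rnKO 1, 2 and 3. WT 1 and WT 2 lay above every knockout library, and WT 3 lay within the knockout range. The means were 33.3 ± 5.17 and 26.1 ± 4.97 CPM (SD, n = 3). This was a log2 fold change of -0.35 (SE 0.20, 95% interval -0.79 to 0.08, adjusted p = 0.988 by edgeR). It was negative in all 14 alternative fits, between -0.52 without Il1rnKO 1 and -0.25 without Il1rnKO 2, with adjusted p of at least 0.486. Gm20388, an annotated locus of the plus strand, spans this gene and had 332 to 1727 counts in a library, and the use of strand in the counting is not given in the sources used here.

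Slc7a6 (y+LAT2), the other light chain, which exchanges cationic for neutral amino acids, had a fold change near 0. This gene is on the plus strand of chromosome 8 from 106168857 to 106198706 (ENSMUSG00000031904.5). Its levels were 51.9, 60.6 and 52.2 CPM in wild type and 46.7, 61.8 and 58.7 CPM in knockout, in the order of the library numbers. The knockout values spanned the wild-type ones on either side. A log2 fold change of 0.02 was fitted (SE 0.16, 95% interval -0.34 to 0.38), a value whose sign turned in 5 of the 14 alternative fits.

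The balance between these partners was compared within each library, where scaling has no part. The log2 ratio of Slc7a5 to Slc3a2 counts was -2.17, -2.68 and -2.38 in wild type, by library number, against -2.36, -2.91 and -2.47 in knockout. These values overlapped, and the difference of -0.17 gave p = 0.6 in a two-sided exact permutation test of 3 against 3 libraries, whose smallest possible p is 0.1. The log2 ratio of Slc7a6 to Slc7a5 was 0.53, 0.73 and 0.93 in wild type and 0.59, 1.55 and 1.17 in knockout, in the same order. Slc7a6 had more counts than Slc7a5 in all 6 libraries, with the widest gap in Il1rnKO 2. The difference of 0.37 gave an exact permutation p = 0.3. Single libraries moved both differences: with 1 library left out, that of Slc7a5 to Slc3a2 ran from -0.30 (without WT 2) to -0.002 (without Il1rnKO 2), and that of Slc7a6 to Slc7a5 from 0.148 (without Il1rnKO 2) to 0.628 (without Il1rnKO 1). Over the 4 ratios compared (with Slc38a2 to Slc38a1 and Slc1a4 to Slc1a5, below), the Benjamini-Hochberg adjusted values of these exact permutation p were 0.4 to 0.6.

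Counted per kilobase of annotated exon, Slc3a2 exceeded the sum of its 6 light chain genes in every library. That sum, over Slc7a5, Slc7a6, Slc7a7, Slc7a8, Slc7a10 and Slc7a11, was 23.9, 24.7 and 21.5 CPM per kilobase in wild type, by library number, against 23.6, 28.9 and 25 in knockout, and the heavy chain had 1.55 to 2.68 times as much. The ratio was highest in WT 2 (2.68) and lowest in Il1rnKO 2 (1.55). Slc7a6 made up 43.3 to 53.6% of the sum and Slc7a5 34.3 to 40.6% in wild type and 19.6 to 35.5% in knockout. Slc7a10 (Asc-1), the light chain for small neutral amino acids such as serine and alanine, made up 4.62 to 11.6% in wild type and 18.7 to 32.2% in knockout. All shares are of the same sum, so a larger share of Slc7a10 makes the others smaller. Slc7a10 did not pass (adjusted p = 0.909 by edgeR), and CPM ranges that do not overlap occurred in 9.41% of all tested genes. This set of light chains was put together after the values had been seen, and a group of transcripts per kilobase says nothing of protein pairs at the membrane.

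**Figure D3:**
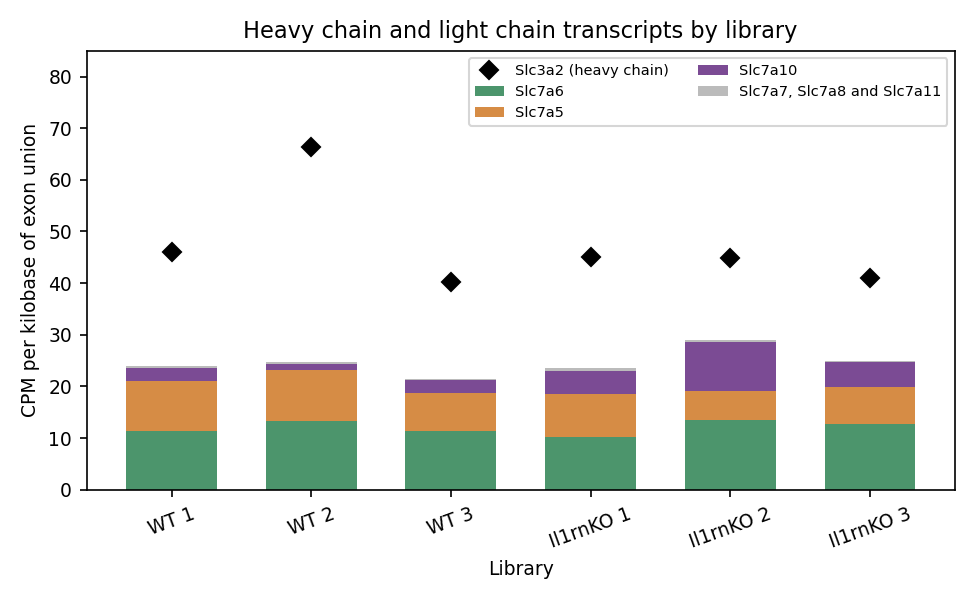
CPM per kilobase of exon union (y axis) in each library (x axis) for Slc3a2 (diamonds) and for its light chain genes (stacked bars). The diamonds lie above the bars in all 6 libraries, and the Slc7a10 segment holds 4.62 to 11.6% of the bar in WT and 18.7 to 32.2% in Il1rnKO. Slc7a10 did not pass the test (adjusted p = 0.909 by edgeR).

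Slc7a1 (CAT-1), which carries arginine, lysine and ornithine without a heavy chain, was the steadiest of the 9 genes across wild-type libraries. It lies on the minus strand of chromosome 5 from 148327410 to 148399904 (ENSMUSG00000041313.14). It was at 71.0, 65.3 and 66.0 CPM in WT 1, 2 and 3, a coefficient of variation of 4.56%. In Il1rnKO 1, 2 and 3 it was at 80.6, 61.8 and 62.0 CPM, with Il1rnKO 1 above all other libraries. Its log2 fold change of 0.02 (SE 0.16, 95% interval -0.33 to 0.36) was near 0, and the sign turned in 6 of the 14 alternative fits.

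Slc1a5 (ASCT2), a sodium-dependent exchanger of neutral amino acids and a route for glutamine into activated T cells, had a positive fold change that did not pass. The gene occupies the plus strand of chromosome 7 from 16781340 to 16798274 (ENSMUSG00000001918.17). Its levels were 108, 81.4 and 91.8 CPM in WT 1, 2 and 3 and 117, 100 and 111 CPM in Il1rnKO 1, 2 and 3. WT 1 reached into the range of the knockout libraries, while WT 2 and WT 3 lay below it. The means were 93.8 ± 13.4 and 109 ± 8.17 CPM (SD, n = 3). On the log2 scale the fold change was 0.22 (SE 0.15, 95% interval -0.12 to 0.56). It stayed positive in all 14 alternative fits, from 0.13 without WT 2 to 0.30 without WT 1. In WT 2, where Slc3a2 and Slc38a2 were highest, Slc1a5 was lowest.

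Slc1a4 (ASCT1), its relative for alanine, serine, cysteine and threonine, was close to the limit of the measurement. It lies on the minus strand of chromosome 11 from 20302180 to 20332713 (ENSMUSG00000020142.12). Wild-type libraries 1 to 3 had 29, 12 and 5 counts of it, and knockout libraries 1 to 3 had 26, 21 and 34. WT 2 and WT 3 were the lowest libraries, and WT 1 lay within the knockout range. The log2 fold change of 0.82 had an SE of 0.73 and a 95% interval from -0.80 to 2.45, and ran from 0.47 without WT 3 to 1.47 without WT 1. Its log2 ratio to Slc1a5 was -6.08, -6.78 and -7.89 in wild type and -6.34, -6.22 and -5.72 in knockout (difference 0.82, exact permutation p = 0.3). That difference ran from 0.336 without WT 3 to 1.24 without WT 1.

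Slc38a1 (SNAT1), which takes up glutamine and other small neutral amino acids, was the second of the sodium-coupled carriers in CPM. It lies on the minus strand of chromosome 15 from 96571418 to 96642913 (ENSMUSG00000023169.15). It was at 187, 181 and 141 CPM in WT 1, 2 and 3 and at 202, 203 and 154 CPM in Il1rnKO 1, 2 and 3. Within each group the library with the highest share of mitochondrially encoded counts, WT 3 (8.92%) and Il1rnKO 3 (8.34%), had the lowest level. The log2 fold change of 0.13 (SE 0.17, 95% interval -0.24 to 0.51) was -0.068 with that share as a covariate and 0.248 without Il1rnKO 3. The log2 ratio of Slc38a2 to Slc38a1 was 0.82, 1.41 and 1.24 in wild type and 0.90, 0.52 and 1.03 in knockout. The 2 ranges overlapped, and the difference of -0.34 gave p = 0.3 in the exact permutation test. It ran from -0.503 without WT 1 to -0.188 without Il1rnKO 2.

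Slc38a9, the lysosomal arginine carrier and sensor that joins the Rag GTPases upstream of mTORC1, had 1 high library. Its locus is on the plus strand of chromosome 13 from 112660751 to 112738749 (ENSMUSG00000047789.5). It was at 36.0, 42.6 and 37.2 CPM in WT 1, 2 and 3 and at 39.4, 66.1 and 40.1 CPM in Il1rnKO 1, 2 and 3. Il1rnKO 2 alone stood apart, and the other 5 libraries lay between 36.0 and 42.6 CPM. The log2 fold change of 0.33 (SE 0.21, 95% interval -0.14 to 0.80) was 0.02 without that library and 0.445 without Il1rnKO 3.

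Slc43a1 (LAT3), a facilitated carrier of branched-chain amino acids, was barely detected and was not tested. It lies on the plus strand of chromosome 2 from 84838850 to 84863594 (ENSMUSG00000027075.16). Wild-type libraries 1 to 3 had 7, 0 and 0 counts of it, and knockout libraries 1 to 3 had 0, 7 and 6. A count of 0 allows up to 0.186 CPM in WT 2, 0.232 CPM in WT 3 and 0.166 CPM in Il1rnKO 1 (3 counts, which covers counting error only).

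Levels of different genes were compared as CPM per kilobase of the union of annotated exons, as means of the 6 libraries. Slc3a2 came first with 47.3 ± 9.59, followed by Slc38a2 with 40.1 ± 7.71, Slc1a5 with 24.3 ± 3.14, Slc7a6 with 12.1 ± 1.30 and Slc38a1 with 10.3 ± 1.46 CPM per kilobase (SD, n = 6). Below them lay Slc7a5 with 8.01 ± 1.62, Slc7a1 with 5.88 ± 0.617, Slc38a9 with 2.61 ± 0.676, Slc1a4 with 0.323 ± 0.157 and Slc43a1 with 0.0351 ± 0.0388 CPM per kilobase (SD, n = 6). Of the tested genes with a length, Slc38a2 exceeded 91.9% on this scale, Slc1a5 85.3%, Slc7a5 59.1% and Slc1a4 9.5%. Neighbours in this order whose ranges over the 6 libraries overlapped were Slc3a2 and Slc38a2, Slc7a6 and Slc38a1, Slc38a1 and Slc7a5, and Slc7a5 and Slc7a1. The higher of the pair led within all 6 libraries, except that Slc7a6 led Slc38a1 in 5 of 6.

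Part of the order rests on the length used. With the longest protein-coding transcript, 4.66 kilobases for Slc38a2 in place of 8.84 and 7.27 for Slc38a1 in place of 17.24, Slc38a2 came first at 76.1 ± 14.6 and Slc3a2 second at 59.3 ± 12.0 CPM per kilobase (SD, n = 6). On that scale Slc38a1 was at 24.5 and Slc7a6 at 14.7 CPM per kilobase, and Slc7a1 at 9.44 and Slc7a5 at 8.44. The neighbours with overlapping ranges were then Slc38a2 and Slc3a2, Slc7a1 and Slc7a5, Slc7a5 and Slc38a9, and Slc1a4 and Slc43a1. Slc1a5 followed these 2 genes with either length, and Slc38a9, Slc1a4 and Slc43a1 took the last 3 places with both.

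**Figure D4:**
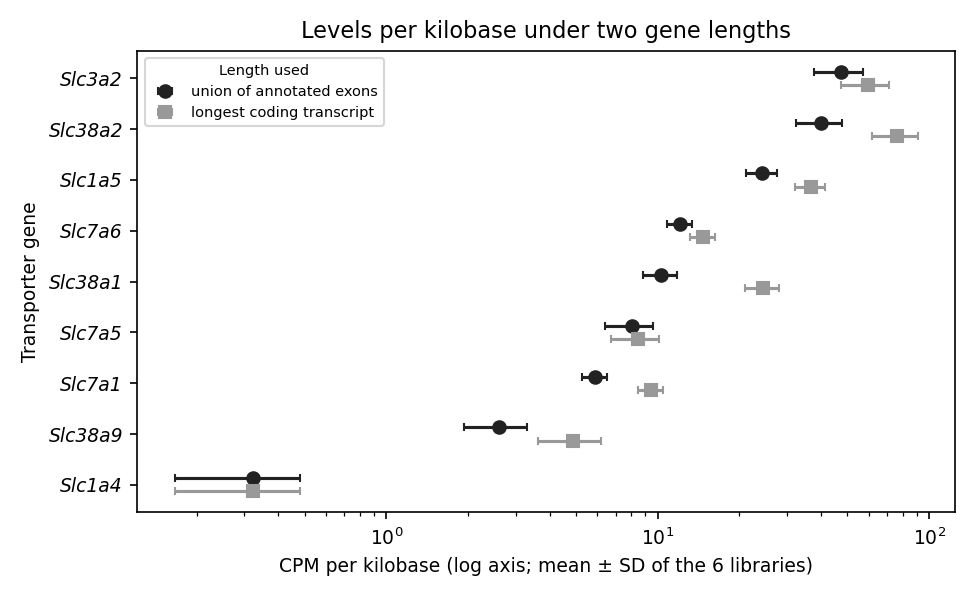
Level in CPM per kilobase (x axis, log scale; mean ± SD of the 6 libraries) of the 9 tested transporter genes (y axis), with black circles for the exon union and grey squares for the longest coding transcript. Slc3a2 and Slc38a2 change places with the length (47.3 and 40.1 against 59.3 and 76.1), and Slc1a4 lies far below the rest at 0.323.

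Single libraries differed too. The highest library exceeded the lowest by 1.3 times for Slc7a1 and up to 1.84 times for Slc38a9 among the 8 abundant genes. WT 2 held the highest value of 3 of the 9 genes (Slc3a2, Slc7a5 and Slc38a2), Il1rnKO 2 that of 3 others (Slc7a6, Slc38a1 and Slc38a9), and WT 3 and Il1rnKO 2 the lowest value of 3 each. Of the 22 tested genes of the amino acid response through GCN2 and ATF4, 4 had their highest value in WT 2 (Atf4, Ppp1r15a, Ddit3 and Cth) and 6 their lowest (Psat1, Phgdh, Mthfd2, Cebpg, Ddit4 and Eif4ebp1), so the list as a whole did not share the high value. Atf4, its transcription factor, was at 360, 448 and 427 CPM in WT 1, 2 and 3 and at 341, 288 and 399 CPM in Il1rnKO 1, 2 and 3. Sesn2, the leucine sensor that restrains mTORC1, was at 17.3 CPM in WT 2 and at 6.2 to 10.7 CPM elsewhere, and Ppp1r15a, which restores translation after stress, at 906 CPM in WT 2 and 597 to 778 CPM elsewhere. Myc, a driver of transporter expression in activated T cells, was at 42.5 CPM in WT 2 and highest in WT 1 and Il1rnKO 1 (62.1 and 62.5 CPM). Psat1, which makes serine, was at 18.3 CPM in WT 2 and at 27.8 to 43.7 CPM elsewhere. Atf4, Sesn2, Ppp1r15a, Psat1 and Myc were singled out after their values had been seen, and the part of this response in the levels of the transporters was not tested.

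**Figure D5:**
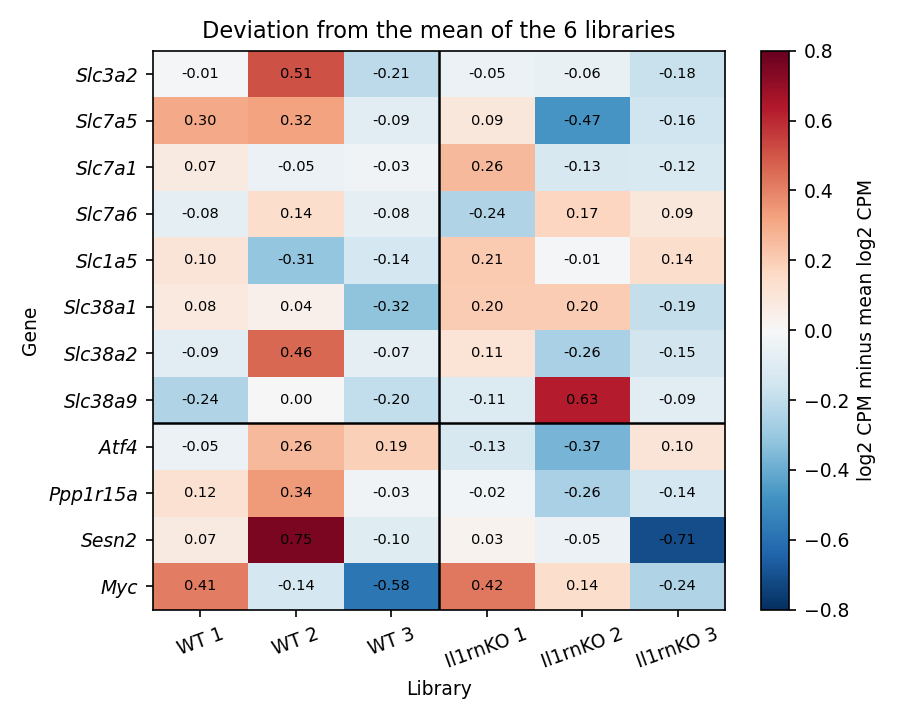
Log2 CPM minus the mean of the 6 libraries (color and printed value) for 8 transporter genes and, below the line, 4 genes of the amino acid response and of growth, in each library (columns); Slc1a4 is left out for its low counts. In the WT 2 column Slc3a2 (0.51) and Slc38a2 (0.46) are high together with Sesn2 (0.75), and in the Il1rnKO 2 column Slc38a9 (0.63) is high while Slc7a5 (-0.47) is low.

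Outside the 9 tested transporter genes, which were left out of this comparison, the patterns over the 6 libraries most like that of Slc3a2 were those of Slc25a25, Gpr132 and Ktn1. Their Pearson r on log2 CPM was 0.987, 0.987 and 0.979. Gpr132, a G protein-coupled receptor, was at 256, 414 and 230 CPM in WT 1, 2 and 3 and at 264, 276 and 236 CPM in Il1rnKO 1, 2 and 3, so the likeness rests on the high value in WT 2. Of the 13365 genes compared, 18 had r above 0.95. Slc25a25 encodes a mitochondrial carrier of ATP-Mg and phosphate, and Ktn1 the kinesin receptor of the endoplasmic reticulum.

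Among 34 further amino acid transporter genes, 18 were tested and 0 passed in either direction by edgeR, beside 0.0523% of all tested genes. There were 10 positive and 8 negative fold changes (median 0.10, beside 0.02 for all tested genes). The other 16 were below the filter, among them Slc6a19, Slc7a9 and Slc38a3 at 0 counts in every library. The values of the groups did not overlap in 2 of the 18, Slc7a10 and Ctns, a share near the 9.41% of all tested genes. These 2 also had the smallest p and are named for that. Slc7a10 was at 5.05, 2.41 and 5.26 CPM in WT 1, 2 and 3 and at 9.29, 19.7 and 10.3 CPM in Il1rnKO 1, 2 and 3. All knockout libraries lay above all wild-type ones, and Il1rnKO 2 was the highest. The log2 fold change was 1.62 (SE 0.40, 95% interval 0.74 to 2.51, adjusted p = 0.909 by edgeR), and it was positive in 14 of 14 alternative fits, from 1.18 without Il1rnKO 2 to 1.80 without WT 3. It passed in 1 of them, edgeR with no filter (adjusted p = 0.0094), and was at an adjusted p = 0.0741 with DESeq2. The sums of the neutrophil, monocyte and macrophage, and erythroid markers given above were also higher in all knockout libraries. That of the CD8 markers was so only without TMM scaling. The part of these markers in this difference was not tested.

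Ctns, the cystine exporter of lysosomes, was at 7.03, 6.31 and 7.2 CPM in wild type and at 13.3, 15.6 and 11.6 CPM in knockout, in the order of the library numbers. Each knockout value was above every wild-type value. The log2 fold change was 0.98 (SE 0.24, 95% interval 0.43 to 1.52, adjusted p = 0.909 by edgeR), and none of 14 alternative fits passed it, the lowest adjusted p being 0.143 without Il1rnKO 3. The same marker sums lie beside this result, again without a test of their part in it. Per kilobase the highest of the 34 genes were Slc38a6 at 237, Slc38a10 at 19.2 and Slc6a6, the taurine transporter, at 9.09 CPM per kilobase. Slc38a6 was thus counted above all 10 transporters described here, with 24518 to 35699 counts in a library and 1347, 1751 and 2763 CPM in WT 1, 2 and 3 against 1376, 1624 and 2193 CPM in Il1rnKO 1, 2 and 3 (log2 fold change -0.17, SE 0.29). A table of counts does not show where in the locus these reads lie, so this value may not be the level of the transporter's own transcript. Its order over the wild-type libraries followed that of the mitochondrially encoded share, and in knockout Il1rnKO 3 was the highest in both. For Slc38a10 the log2 fold change was -0.01 (SE 0.15), and for Slc6a6 it was 0.20 (SE 0.19).

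Genes downstream of amino acid uptake passed in neither direction. Only 7 of all 13374 tested genes (0.0523%) passed, so 0 passing in this list or in those below says little about these pathways. Of 38 genes of mTORC1 and its amino acid sensing, all 38 were tested, 0 passed by edgeR, 22 had positive fold changes and the median was 0.08. Itfg2, a part of the lysosomal KICSTOR complex, was at 19.2, 17.9 and 16.2 CPM in wild type and at 29, 27 and 20.1 CPM in knockout. Its log2 fold change of 0.51 (SE 0.20) was 0.303 with the mitochondrial share as a covariate and 0.652 without Il1rnKO 3. Tbc1d7, a subunit of the TSC complex that holds mTORC1 back, had 0.72 (SE 0.39). It had 0.416 without WT 1 and 0.952 with the mitochondrial share as a covariate. In 4 of the 38 the values of the groups did not overlap, beside the 9.41% of all tested genes.

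In the list of GCN2 and ATF4, which senses missing amino acids through uncharged transfer RNA, 22 of 24 genes were tested and 0 passed, with 11 positive and 11 negative fold changes and a median of -0.01. Mthfd2, an enzyme of mitochondrial one-carbon metabolism, was at 45.3, 41.1 and 42.6 CPM in wild type and at 57.2, 48 and 52.3 CPM in knockout, with no overlap (log2 fold change 0.29, SE 0.15). Ppp1r15a had -0.29 (SE 0.17), with -0.184 without WT 2 and -0.373 without Il1rnKO 1. Asns, the asparagine synthetase, named after its values had been seen, was low in all libraries, from 0.769 CPM in Il1rnKO 2 to 4.09 CPM in Il1rnKO 3. Of the 20 cytosolic aminoacyl-tRNA synthetases, which load the imported amino acids onto transfer RNA, 0 passed, 8 had positive fold changes and the median was -0.04. The log2 fold change of Yars, for tyrosine, was 0.39 (SE 0.17), and that of Iars, for isoleucine, 0.30 (SE 0.17). They were 0.221 and 0.129 with the mitochondrial share as a covariate, and Iars was 0.196 without Il1rnKO 1. Without Il1rnKO 3, Yars was 0.492 and Iars 0.416.

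Of 23 genes of amino acid breakdown and use, 21 were tested and 0 passed, with 6 positive and 15 negative fold changes and a median of -0.14. Bckdhb, a subunit of the dehydrogenase that degrades branched-chain amino acids, was at 27.1, 41.1 and 59.1 CPM in wild type and at 25.7, 23.2 and 35.3 CPM in knockout (log2 fold change -0.59, SE 0.27). Its order over the libraries of each group was that of the mitochondrially encoded share. The log2 fold change was -0.283 without WT 3, -0.189 with that share as a covariate and -0.867 without WT 1. Bcat1, the cytosolic branched-chain transaminase, had -0.74 (SE 0.37), with -0.423 without WT 3 and -0.954 without WT 2. Of 16 regulators of transporters and mTORC1 in T cells, 15 were tested and 0 passed, with 8 positive fold changes and a median of 0.03. Nedd4, a ubiquitin ligase, was at 7.86, 14.5 and 5.88 CPM in wild type and at 18.2, 35.8 and 9.11 CPM in knockout (log2 fold change 1.15, SE 0.47). That value was 0.501 without Il1rnKO 2, 1.60 without WT 2 and 0.373 with the mitochondrial share as a covariate. Hif1a, the oxygen-regulated transcription factor, had -0.29 (SE 0.15), with values that did not overlap.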

How the data were processed

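The authors deposited 1 table of estimated counts per gene, 18.4 to 23.7% of them with decimals, for 6 libraries (3 Il1rn knockout, 3 wild type), with no scaling. Per the submitters' processing notes the genome was GRCm38. Which aligner, counting program and strand setting were used is not given in the sources used here, and reads of overlapping genes may be shared. Counts were rounded. Symbols, coordinates and lengths came from GENCODE M21 (34582 identifiers matched without version, 284 did not; of identifiers with the same symbol, the longest was used). The test was that of edgeR 4.0.16 (R 4.3.3) after TMM scaling and filterByExpr (minimum count 10, minimum total 15), a quasi-likelihood test (two-sided), p-values adjusted by Benjamini-Hochberg over 13374 genes, threshold 0.05; intervals use the same fit's degrees of freedom. Ratios were compared by exact permutation.

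Tested on counts simulated for this comparison, the fit found 40% of genes changed 2-fold and 71% changed 4-fold and called 17 unchanged genes, among 12874 tested. The alternative fits used RLE or upper-quartile scaling, no filter, a stricter filter (50 counts in 3 libraries), a replicate block, DESeq2 1.42.0, limma 3.58.1 voom with quality weights, the mitochondrial share as a covariate, and each library left out. The members and lists were chosen with earlier results of these data known. Named were all 10 members; in each list the genes past the threshold or the 2 with the smallest p; for other transporters also the 3 highest per kilobase; and the 3 genes most like Slc3a2. Atf4, Sesn2, Psat1, Myc, Asns and the genes listed by their extreme library were named after their values were seen.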

Additional observations from a re-analysis of the deposited data

How the results depend on the processing

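No alternative fit passed any of the 9 tested transporters: over 125 values from 14 alternatives (Slc1a4 was below the stricter filter) the lowest adjusted p was 0.393, and 112 kept their sign. The count of all genes past the threshold, 7, was 58 with no filter, 25 with DESeq2, 14 with the mitochondrial share as a covariate, 11 with limma voom, and 3 to 10 with a library left out. With the replicate number as a block it was 11. Genes at an unadjusted p under 0.05 by edgeR, 545 in the main fit, were 1228 with this block and 1873 without Il1rnKO 3. Deviations from the group means correlated only weakly between same-numbered libraries (0.108, 0.053 and 0.116). Each library correlated best with its own number. Deviations sum to 0 over the 3 libraries of a group, so some best match above 0 is built in. That it falls on the same number is not built in. Whether same-numbered libraries share a batch or a pairing was not tested, and the labels give none. Among other transporters 1 gene, Slc7a10, passed with no filter.

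Signs turned for values near 0. With a library left out, Slc3a2 ran from -0.37 to 0.011, Slc7a1 from -0.148 to 0.075 and Slc7a6 from -0.084 to 0.109. Slc7a1 was -0.002 with RLE and DESeq2 and -0.066 with the mitochondrial covariate, Slc7a6 -0.092 with limma voom, and Slc38a1 -0.068, Slc38a6 0.216 and Slc6a6 -0.072 with that covariate. Slc38a10 was 0.043 with limma voom; leaving out a library it ran from -0.104 to 0.043, and Slc38a6 from -0.415 to 0.158. The cause was not tested. The length used, chosen after seeing the data, moved 7 of the 10 levels per kilobase by more than 1 SD. Depth limits Slc1a4 and Slc43a1, at 34 counts or fewer in a library.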
